A study of Rattus norvegicus with 15 samples.

Results

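The posterior cerebral artery of rats was compared 24 h after a 3-vessel occlusion and 24 h after sham surgery, with 3 arrays in each group, 6 of the 15 arrays in the series. The groups were taken from the source labels, and all probe sets other than the manufacturer's controls entered the comparison. In the occlusion (3VO), both vertebral arteries were closed by electrocoagulation and the left common carotid artery was tied. The design text calls the model one of nonischemic hypoperfusion of the brain. In the sham operation the same vessels were laid open and left untouched. The artery was the ipsilateral one. All animals were Sprague Dawley rats of 7 weeks and 300 to 350 g under isoflurane, with buprenorphine for pain. The vessels were filled with latex under papaverine, a dilator, before the brain went into RNAlater and the artery was cut out. Each array held RNA pooled from 8 animals. The treatment text of 3VO replicate 1 leaves out the further days of buprenorphine that the other 5 arrays have. Nothing in the labels says whether the 3 pools of a group held different animals, so the p-values measure only the spread between these arrays.

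When a supply artery closes, blood reaches its territory through connecting arteries, and the higher flow in these collaterals is followed by growth of their wall. This outward remodelling, known as arteriogenesis, involves endothelial cells that sense flow, monocytes and macrophages that gather around the vessel, smooth muscle cells that lose contractile proteins as they begin to divide, and enzymes that take the matrix apart. Acute phase proteins are made mostly in the liver during inflammation, but several of them are also made by astrocytes, endothelium and macrophages.

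Artery was present on every array. The smooth muscle markers Acta2, Myh11, Tagln and Cnn1 had group means between 10200 and 137000, on a scale with a trimmed mean of 5000 per array. Pecam1 and Tie1, which mark endothelium, had means of 3540 and 4560 after 3VO. Brain came with the artery, since none of 37 neuron markers and none of 22 astrocyte markers was below 1000 on all 6 arrays. Correlations of log2 signals between the 6 arrays were 0.94 to 0.953 within the groups and 0.927 to 0.95 between them, so the groups stood little farther apart than arrays of a group. Signals below 1000 made up 24.7% to 28.7% of the values on these arrays.

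The occlusion was followed at 24 h by higher levels of a protease inhibitor, a kininogen probe set and a few acute phase and macrophage genes. Of 15737 tested probe sets, 8 rose (0.0508%) and none fell in limma's test at an adjusted p under 0.05. Without adjustment, 511 higher (3.25%) and 586 lower (3.72%) probe sets had a p under 0.05. On 1010 probe sets (6.42%) all 3VO arrays were above all sham arrays, and on 1416 (9%) all were below, 15.4% in both directions together. The median log2 difference over all genes was -0.01. Lower genes passed in some other fits: 10 lower and 10 higher probe sets with the 6 arrays alone, 6 lower and 19 higher with array weights, and 5 lower and 11 higher without the intact arrays.

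**Figure D1:**
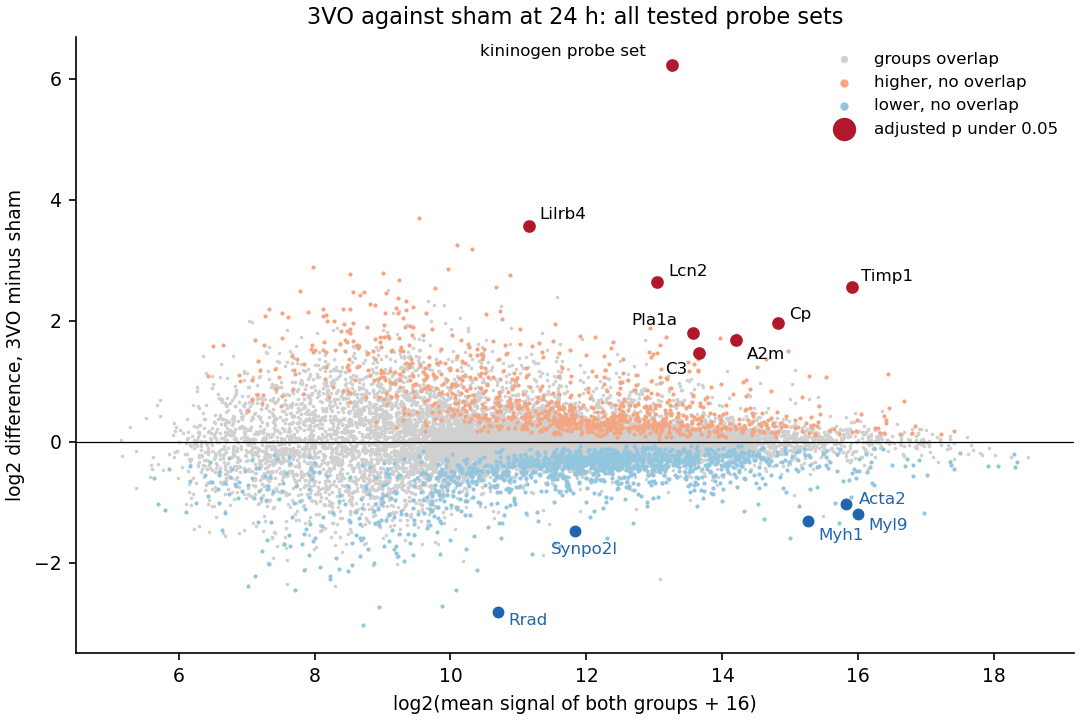
Each point is 1 of 15737 probe sets, with log2 of the mean signal of both groups on the horizontal axis and the log2 difference between 3VO and sham at 24 h on the vertical axis. The 8 probe sets that passed lie above 1.4 on the vertical axis, and 5 of the lower genes, none of which passed, are named in blue.

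Timp1, which inhibits matrix metalloproteinases and is induced in many injured tissues, had signals of 107000, 137000 and 73000 after 3VO against 17900, 18200 and 16200 after sham surgery. Intact arteries had 13200, 8330 and 18000, so the lowest 3VO array was above all arrays of both other groups. The log2 difference from sham was 2.55 (SE 0.25, limma adjusted p = 0.00069).

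Another of the 8 probe sets is annotated to several kininogens, plasma proteins from which bradykinin is cut, and could not be given to a single gene. It read 25900, 22300 and 9460 after 3VO. Sham arrays read 73, 236 and 559, and intact arrays 306, 112 and 912. This was the largest log2 difference of all 15737 probe sets, from near the floor of the scale to well above its mean (log2 difference 6.23, SE 0.76, limma adjusted p = 0.00507). The size depended on the low end, and was 5.46 with a pseudocount of 160 and a signal minimum of 1000.

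Acute phase and iron-binding proteins made up 4 of the remaining 6. A2m, a broad inhibitor that traps proteases, had 26200, 30700 and 29100 after 3VO and 9970, 7820 and 9020 after sham surgery, with little spread in either group (log2 1.68, SE 0.23, limma adjusted p = 0.0105). Lcn2, which binds the iron carriers of bacteria and is stored in neutrophils, had 14500, 22100 and 7520 against 1950, 2570 and 2000 (log2 2.63, SE 0.38, limma adjusted p = 0.0141). Its 3VO arrays differed almost 3-fold among themselves, yet the lowest was far above every sham array. C3, the central component of complement, had 19500, 22200 and 14800 against 7700, 5040 and 7910 (log2 1.46, SE 0.21, limma adjusted p = 0.0141).

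Cp encodes ceruloplasmin, a copper protein that oxidises iron, and was read by 3 probe sets. One of them read 48700, 47500 and 42200 after 3VO and 13500, 10700 and 11500 after sham surgery (log2 1.96, SE 0.30, limma adjusted p = 0.0191). On the others the 3VO arrays were also all higher, but the log2 differences of 1.07 and 0.74 did not pass (limma adjusted p = 0.511 and 0.548). The probe sets of Cp therefore disagree on the size of the difference.

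Pla1a, a phospholipase that acts on phosphatidylserine, had 17600, 23100 and 16000 against 6670, 4720 and 5000 (log2 1.79, SE 0.24, limma adjusted p = 0.00908). Lilrb4, an inhibitory receptor of macrophages and other myeloid cells, had 3040, 5930 and 3510 against 192, 510 and 336 (log2 3.57, SE 0.54, limma adjusted p = 0.0191). Intact arteries were near the sham level for both, at 3960 ± 1060 for Pla1a and 595 ± 355 for Lilrb4 (SD, n = 3 arrays).

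**Figure D2:**
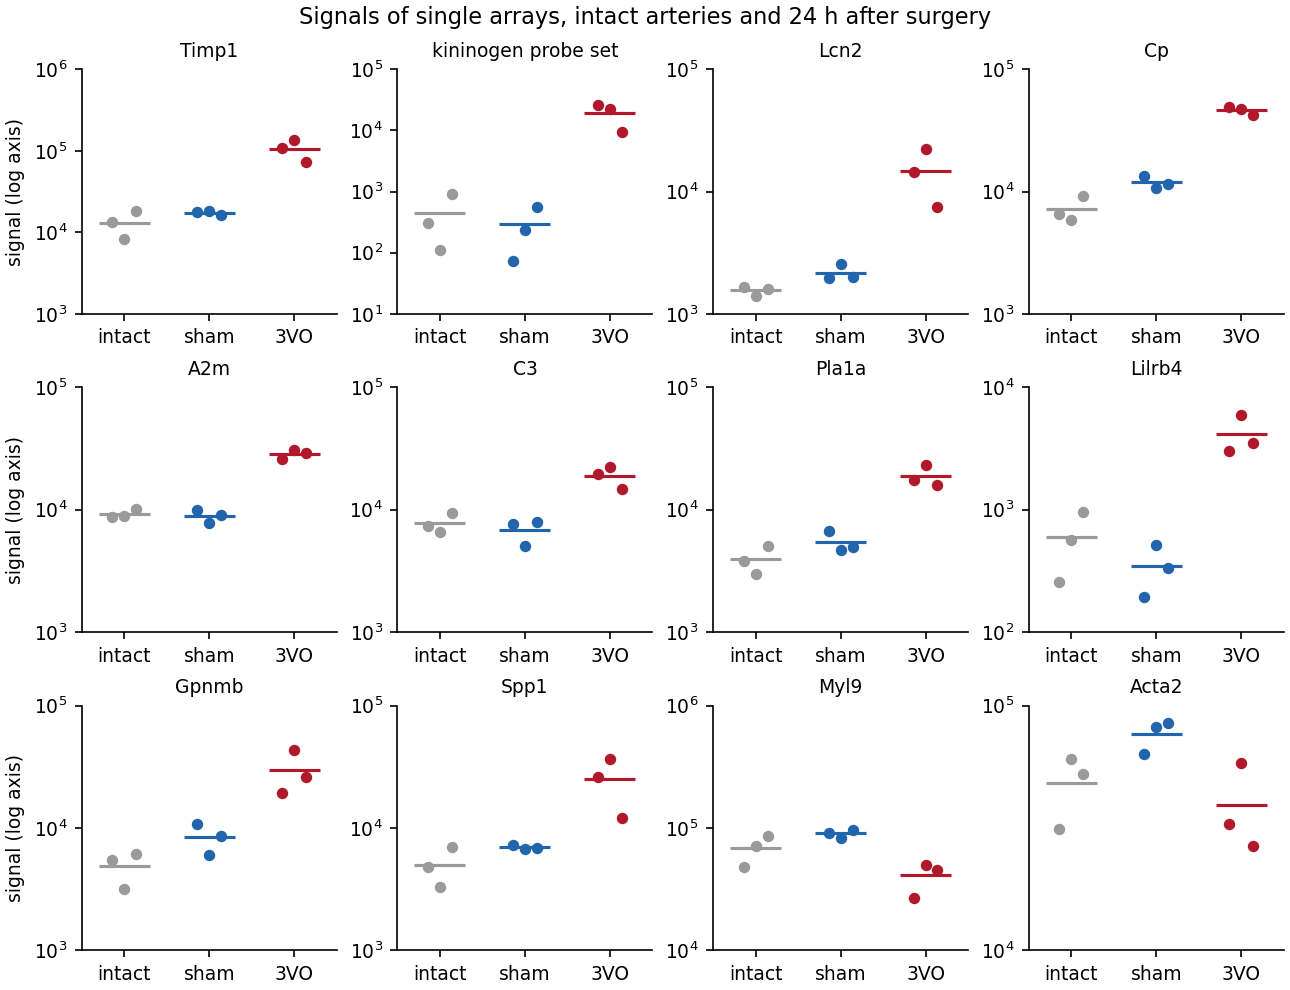
Signals of single arrays on a log axis for the 8 probe sets that passed and for Gpnmb, Spp1, Myl9 and Acta2, which did not, with a line at each group mean. Points stand for arrays of intact arteries and of arteries 24 h after sham surgery or 3VO, and in all 12 panels the sham and 3VO points do not overlap.

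The number of calls depended on single arrays. Without 3VO replicate 2, the array with the highest Timp1 and Lcn2, only Timp1 still passed, and leaving out sham replicate 1, 2 or 3 left 5, 2 and 2 calls. Without intact replicate 1 there were 13, of which 9 were higher and 4 lower. Timp1 passed in each of these fits.

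Promoters of the genes that rose were searched for motifs of the inflammatory factors STAT (TTCNNNGAA), NF-kB and AP-1 (TGANTCA) on both strands, the last added after the first results. RefSeq windows of 300 bases, 250 before and 50 after the start (build GRCr8), were found for 6 of the 8. The window of Lcn2 held an NF-kB motif, which 4.18% of 33469 windows hold. TTCNNNGAA, held by 8.87% of all windows, and TGANTCA, held by 7.33%, were in none of the 6, which says only that these letters are not in these windows. The 250 bases before the start are shown for Lcn2, the only gene with a match, with the motif in capitals (chr3:36081781-36082030, minus strand, first base of the motif at -242), and for Timp1, the gene with the smallest p (chrX:3771123-3771372, minus strand), both 5′ to 3′.
Lcn2: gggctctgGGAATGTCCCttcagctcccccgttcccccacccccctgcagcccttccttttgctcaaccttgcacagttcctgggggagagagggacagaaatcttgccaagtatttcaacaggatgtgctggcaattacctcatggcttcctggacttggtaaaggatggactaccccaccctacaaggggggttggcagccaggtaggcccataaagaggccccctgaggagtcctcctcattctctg
Timp1: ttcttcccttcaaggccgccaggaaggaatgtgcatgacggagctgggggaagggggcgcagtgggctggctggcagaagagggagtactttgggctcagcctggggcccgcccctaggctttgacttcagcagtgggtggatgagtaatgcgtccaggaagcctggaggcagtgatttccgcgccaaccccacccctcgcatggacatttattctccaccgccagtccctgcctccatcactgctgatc

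Gene lists were described by counts and medians over the brightest probe set of each gene. Over all 10360 genes, 6.67% were higher and 9.29% lower with no overlap between the groups, and a list near these shares does not stand apart from the background. Of these genes 6 passed (0.0579%), and 3.38% were higher and 3.92% lower at an unadjusted p under 0.05. Of 39 acute phase genes, 29 were measured, 7 were higher with no overlap (24.1%) and 1, Fn1, was lower. Beside A2m, Lcn2 and C3, which rose, Lbp, which hands bacterial lipopolysaccharide to CD14, had 15600, 21500 and 12400 against 8770, 5150 and 5930 (log2 1.32). Mt2A, a metallothionein that binds zinc and copper, had 42500, 33900 and 33300 against 17500, 16500 and 9870 (log2 1.36). Neither overlapped between the groups, and neither passed (limma adjusted p = 0.405 and 0.148). The median of the list was 0.25.

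Several complement genes were higher on all 3VO arrays. The classical pathway starts with C1, which consists of the recognition chains C1qa, C1qb and C1qc and the proteases C1r and C1s. C1qb had 24300, 35200 and 24100 after 3VO against 15800, 11800 and 13500 after sham surgery (log2 1.01, SE 0.22, limma adjusted p = 0.16). C1qa, C1qc, C1s and C1r were higher by 0.83, 0.87, 0.79 and 0.63 on the log2 scale with no overlap and did not pass. With C3, which also counts in the acute phase list, they were the 6 higher genes with no overlap of 24 measured, or 25%. The genes lower with no overlap were Vtn, an inhibitor of the terminal complex, at -0.78 and Mbl2 of the lectin pathway, at a low level, at -0.88. Factors C9, Cfp and Masp1 overlapped between the groups.

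Of 24 genes for iron, haem and metals, 5 were higher without overlap (20.8%), namely Lcn2, Mt2A, Hmox1, Cp and Hmox2, and Hamp and Slc40a1 were lower. Lcn2, Mt2A and Cp also count in the acute phase list, so the 2 lists are not separate findings. The summed signal of the 24 genes was 218000 to 233000 after 3VO and 131000 to 157000 after sham surgery. Much of that gap lay in the brightest probe set of Cp, with means of 63100 against 30700, and in Mt2A, with 36600 against 14600. The median of the list was 0.12. Hmox1, which breaks down haem, had 4190 and 3940 on 3VO replicates 1 and 3 and 13400 on replicate 2, against 2890, 2540 and 2560 after sham surgery (log2 1.18, limma adjusted p = 0.713). It was 2.13 with the mean of the neuron markers on each array as a covariate (the neuron covariate). Hamp, the hormone hepcidin that closes iron export, was lower, with 1460, 1580 and 959 against 2490, 2460 and 2120 (log2 -0.84, limma adjusted p = 0.374). Both kept the groups apart, and the gap of Hmox1 rested largely on replicate 2.

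Some genes of macrophages that take up lipid and debris were higher on all 3VO arrays. Gpnmb, a membrane glycoprotein of phagocytes, had 19400, 43500 and 26000 against 10800, 5970 and 8590 (log2 1.77, SE 0.34, limma adjusted p = 0.13). Spp1, the secreted adhesion protein osteopontin, had 26300, 36700 and 12100 against 7210, 6780 and 6790 (log2 1.71, SE 0.36, limma adjusted p = 0.157). Fcgr2b, an inhibitory receptor for antibodies, had 11400, 21000 and 10500 against 5210, 3110 and 4210 (log2 1.73, SE 0.34, limma adjusted p = 0.13). All 3 genes were highest on 3VO replicate 2, and none overlapped with sham. Lgals3, a galactose-binding lectin, and Fabp5, a fatty acid carrier, were higher by 0.99 and 0.89, also without overlap. With Gpnmb, Spp1, Pla1a and Cd36 they made 6 of 20 measured genes for lipid and scavenging (30%), and none of the 20 was lower without overlap.

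Markers of macrophages and microglia were higher in 22 of 25 cases, with a median of 0.22. With no overlap 7 were higher (28%) and none lower. Among the 7 were C1qa, C1qb and C1qc, which the complement list also counts. The summed signal of the markers was 342000 to 495000 after 3VO and 260000 to 353000 after sham surgery, and none was below 1000 on all 6 arrays. Some general markers moved less than the genes above, but Itgam was higher by 1.09 on the log2 scale, with overlap. P2ry12, also on this list, was higher by 0.15 without overlap. The lysozyme Lyz2 was at 132000 ± 20900 against 115000 ± 17200, Tyrobp at 8110 ± 1490 against 7010 ± 1040, and Tmem119, which marks microglia, at 1590 ± 495 against 1250 ± 611 (SD, n = 3 arrays each), and all 3 overlapped between the groups. In bulk RNA, more cells of a type and more RNA per cell cannot be told apart. The part of cell numbers in the 8 calls was not tested.

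Lysosomal proteases followed in a smaller range. Ctss, a cathepsin of antigen-presenting cells that can cut elastin, was at 53100 ± 10600 against 34900 ± 4350 (SD, n = 3 arrays each, log2 0.59), and Ctsz at 9020 ± 2310 against 5960 ± 813 (log2 0.58). Of 26 measured genes, with cystatins among them, 6 were higher with no overlap (23.1%) and 1 was lower, and none passed. The largest difference was that of a cystatin, Cst6, at 1140 ± 612 against 230 ± 134 (log2 2.23). Intact arteries had 1800 ± 148 for Cst6.

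Markers of neutrophils and lymphocytes gave few differences. S100a9, a calcium-binding protein that neutrophils hold in bulk, read 8980 ± 2510 against 7970 ± 4180 (SD, n = 3 arrays each), and the groups overlapped for 7 of the 8 markers measured, all but Lcn2. Of 17 lymphocyte markers 7 were below 1000 on all 6 arrays, among them Cd3d, Cd8a and Cd79b. None was higher without overlap, and Cd8a (log2 -1.11) and Cd79b (-0.73) were lower without overlap at these low signals.

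Genes of cytokine signalling lay on both sides. Among 25 measured members of the IL-6 family and its STAT3 pathway none kept the groups apart. The median was 0.03, with Socs3, a feedback inhibitor induced by STAT3, at 2000 ± 333 against 1540 ± 183 (log2 0.37). Il6 itself was low, at 356 ± 129 against 295 ± 240, and Il1b was at 2420 ± 317 against 2050 ± 363. Of 39 genes for chemokines, cytokines and adhesion 3 were higher (7.69%) and 5 lower (12.8%) without overlap, close to the background. The cytokine Tnf had 381, 38 and 62 against 892, 559 and 931 (log2 -2.74, limma adjusted p = 0.312), all low signals that did not overlap. Of the chemokines, Ccl2, which draws monocytes, had 2210, 1840 and 1520 against 1390, 709 and 571 (log2 1.14, SE 0.60, limma adjusted p = 0.769), apart but with neighbouring values. Cxcl14 had 9420, 5190 and 8780 against 1800, 3880 and 2440, and its log2 difference of 1.55 shrank to 0.83 with the neuron covariate and 0.42 on the arrays with the closest neuron means. Cxcl10, induced by interferon, had 1090, 1390 and 1410 against 3130, 2080 and 2530 (log2 -0.98, and -0.62 with the neuron covariate). Other interferon-induced genes, Oasl, Rsad2 and Ifit1, were lower by -0.61, -0.64 and -0.65 without overlap, whereas Ifitm1 was higher by 1.08, with 43300, 58900 and 58700 against 30300, 21300 and 24400. Of 33 genes for interferon response and antigen presentation, 4 were lower (12.1%) and 2 higher (6.06%) without overlap, close to the background, with a median of -0.04. Of the adhesion molecules of activated endothelium, Vcam1 was lower without overlap, at 16100 ± 1610 against 18900 ± 362 (log2 -0.24), and Icam1 overlapped, at 9940 ± 2490 against 8890 ± 1410 (log2 0.14).

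Contractile proteins of smooth muscle were lower after 3VO. Of 34 listed genes 27 were measured, all 27 had a lower mean, and 15 were lower with no overlap (55.6%), with a median of -0.54. None of them passed. Neuron markers were higher and erythroid markers lower in the same comparison, and the median was -0.27 with the neuron covariate and -0.18 with both. Myl9, the regulatory light chain of smooth muscle myosin, had 26900, 50100 and 45500 after 3VO against 91400, 83300 and 95500 after sham surgery (log2 -1.19, SE 0.27, limma adjusted p = 0.226). Acta2, smooth muscle actin, had 32800, 58200 and 26700 against 63300, 82100 and 84600 (log2 -1.04, SE 0.32, limma adjusted p = 0.505). Both were lower on every 3VO array, by a narrow gap for Acta2, where 58200 met 63300.

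Intact arteries had 31300, 60400 and 52600 for Acta2 and 47800, 71400 and 85700 for Myl9. For Acta2 all 3 lay below every sham array, and for Myl9 only 1 reached the sham range. The mean log2 level of the whole list on single arrays was -0.39, -0.01 and -0.37 after 3VO, 0.18, 0.25 and 0.45 after sham surgery, and from -0.48 to 0.25 in intact arteries. The 3VO arrays overlapped with intact arteries for both genes.

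Other parts of the contractile apparatus showed the same direction. The actin crosslinker Flna had 41300, 47600 and 38100 against 73300, 76900 and 88500 (log2 -0.91, limma adjusted p = 0.312), and passed in the fit of the 6 arrays alone (limma adjusted p = 0.0488). Itga7, a laminin receptor of smooth muscle, had 5200, 5210 and 4430 against 8620, 7880 and 11600 (log2 -0.90). Myh11, the smooth muscle myosin heavy chain, and Tagln, an actin-binding protein, were lower by -0.68 and -0.57 without overlap. Srf, the factor that drives these genes through CArG boxes, overlapped (log2 -0.24). An exact CArG box was found in 2 of the 22 promoter windows available for the list, those of Srf and Fhl1, against 1.64% of all windows. Near matches were not counted, so a window without a match lacks only the exact letters.

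Calcium handling and the actin cytoskeleton gave larger single differences. Pln, which restrains the calcium pump of the sarcoplasmic reticulum, had 9560, 18700 and 16800 against 34600, 33300 and 37000 (log2 -1.28, SE 0.35, limma adjusted p = 0.374), and -0.79 with the neuron covariate. Casq2, which stores calcium there, was lower by -1.0 and the potassium channel Kcna5 by -0.77. Of 28 genes for calcium and ion channels, 7 were lower without overlap (25%) and none higher. The actin-associated proteins Synpo2l and Wtip, with Ccdc66, had the smallest p-values of the lower named genes. Synpo2l had 1690, 2410 and 1670 against 4480, 5280 and 6350 (log2 -1.48, SE 0.28, limma adjusted p = 0.123), and Wtip 2200, 2560 and 2830 against 5800, 6000 and 6080 (log2 -1.24, SE 0.24, limma adjusted p = 0.128). Both passed in other fits: Wtip in that of the 6 arrays alone (limma adjusted p = 0.0327), and Synpo2l with array weights (0.0221). Rrad, a small GTPase that binds calcium channels, had 128, 621 and 651 against 2330, 2580 and 3520. Of 41 actin regulators 14 were lower without overlap (34.1%) and 2 were higher.

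Myh1, a fast skeletal myosin that smooth muscle does not use, read 28100, 29100 and 13400 after 3VO against 52400, 55300 and 57900 after sham surgery. The other 4 probe sets of Myh1 disagreed, with log2 differences of -1.59 and -1.35 without overlap, -0.89 with overlap, and 1.39 in the opposite direction without overlap. Several defining markers of skeletal muscle (Actn3, Mb, Myh2, Myh4, Myh7, Ryr1 and Tnnt3) were below 1000 on all 6 arrays, and 8 of the 17 were higher and 9 lower. Without overlap, Myl1, Myh1 and Casq1 were lower and Pvalb was higher. Myl1, a skeletal myosin light chain, had 1230, 1570 and 1410 against 4070, 4820 and 4620 (log2 -1.67, limma adjusted p = 0.405), with a wide gap between the groups. The summed signal of the list was 36200 to 56000 after 3VO and 92200 to 98100 after sham surgery. Most of that sum came from the brightest probe set of Myh1, with means of 31500 and 75800. The part of skeletal muscle RNA in the lower muscle genes was not tested.

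Matrix genes had lower medians after 3VO, a direction that turned with the neuron markers as a covariate (collagens 0.05, elastic fibres 0.11). Collagens and proteins of the basement membrane were lower in 29 of 35 cases, 12 without overlap (34.3%), with a median of -0.24. The mean log2 level of this list ran from -0.22 to 0.02 after 3VO and from 0.01 to 0.11 after sham surgery. In intact arteries it ran from -0.62 to -0.03. Col1a1, a chain of type I collagen, had 51700, 60000 and 39500 against 61300, 74000 and 80400 (log2 -0.52), and Nid2, which links laminin with collagen, 6760, 9160 and 11100 against 17500, 11900 and 17400 (log2 -0.80, and -0.47 with the neuron covariate). The gap between groups was small for both. Elastin (Eln) was at 5510 ± 1150 against 10600 ± 1860 (SD, n = 3 arrays each, log2 -0.94). Of the metalloproteinases and their inhibitors, Timp1 rose, and the collagenase activator Mmp14 was lower, at 17000 ± 2260 against 22500 ± 2560 (log2 -0.41). The other 23 genes of that list overlapped.

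Growth factors and their receptors had 7 lower and 2 higher members without overlap among 42. Igf1 had 8330, 10400 and 10300 against 14500, 13500 and 13000 (log2 -0.51), the IGF carrier Igfbp5 20100, 16000 and 10500 against 23300, 39500 and 31500 (log2 -1.03), and Tgfb3 4460, 5950 and 4320 against 10400, 11000 and 9460 (log2 -1.07). All 3 were lower on every 3VO array, and none passed (limma adjusted p = 0.45, 0.45 and 0.517), although Tgfb3 did with the 6 arrays alone (0.0488). Intact arteries had means of 11100 for Igf1, 22900 for Igfbp5 and 5930 for Tgfb3. Of the pericyte markers, 14 were measured and 7 were lower without overlap (50%), among them the adhesion molecule Mcam (log2 -0.93 and -1.07 on its probe sets), the proteoglycan Cspg4 (-0.79) and the PDGF receptor Pdgfrb (-0.58). The rest overlapped, and 5 of the 14 had a higher mean, among them Kcnj8 (0.25), Abcc9 (0.09) and Higd1b (0.09). The median was -0.31, but -0.22 with the neuron covariate and -0.10 on the arrays with the closest neuron means.

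The endothelial list of 34 genes had 30 with a lower mean, 6 without overlap (17.6%), with a median of -0.27. The mean log2 level of the list ran from -0.24 to 0.17 after 3VO and from 0.16 to 0.29 after sham surgery. In intact arteries it ran from -0.57 to 0.05. The endothelial markers Vwf (log2 -0.04), Eng (-0.01) and Pecam1 (-0.19) overlapped between the groups. Tie1, a receptor of the angiopoietin system, had 3160, 3860 and 6660 against 6740, 7460 and 6860, so 3VO replicate 3 nearly met the sham arrays. Nos3, the endothelial nitric oxide synthase, had 1780, 3770 and 3930 against 4820, 5330 and 4990 (log2 -0.76, SE 0.46, limma adjusted p = 0.796). Intact arteries had means of 3290 for Tie1 and 1730 for Nos3. Downstream of nitric oxide, Gucy1a1, a subunit of the guanylate cyclase that it activates, had 10100, 10400 and 8970 against 15700, 17000 and 19600 (log2 -0.82, SE 0.17, limma adjusted p = 0.151). Rgs2, which dampens signals of constrictor receptors and is activated by cGMP, was higher, with 12700, 13400 and 10800 against 8570, 7710 and 7690 (log2 0.62, limma adjusted p = 0.226). Neither overlapped. Over the 38 genes of nitric oxide, cGMP and tone, 5 were higher and 5 lower without overlap (13.2% each). The inducible synthase Nos2 was high on only 2 sham arrays, with 2050 and 3350, and read 172 to 314 on the other 4.

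Cell division genes were higher in 32 of 42 cases, 12 without overlap (28.6%), with a median of 0.24. Mcm7, part of the helicase that opens DNA for copying, was at 4740 ± 196 against 3140 ± 490 (SD, n = 3 arrays each, log2 0.60), and Pcna, the sliding clamp of DNA polymerase, at 19800 ± 1480 against 14300 ± 1050 (log2 0.47). Levels of genes used in mitosis were low, with Mki67 at 1230, 914 and 1250 against 559, 290 and 791 (log2 1.12), and Cdk1 at 1940 ± 164 against 1010 ± 212 (log2 0.95). Groups stood apart for all 4, and none passed.

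Chaperones of the endoplasmic reticulum were higher by small amounts. Of 33 genes for chaperones and the unfolded protein response 11 were higher without overlap (33.3%) and 1 was lower. Hsp90b1, Calr, Hspa5 and Sdf2l1 differed by 0.39, 0.42, 0.35 and 0.55 on the log2 scale, and none passed. Of the glycolytic genes Ldha, which makes lactate, was at 24500 ± 3520 against 16900 ± 321 (log2 0.52) and Eno1 at 42500 ± 3390 against 34200 ± 2870 (log2 0.31), 2 of the 4 of 27 (14.8%) higher without overlap. The glycolytic median went from 0.13 to -0.04 with the neuron covariate. The respiratory chain had a median of 0 over 44 genes, with 2 higher and 2 lower without overlap. Of 26 glucocorticoid and clock genes 4 were higher (15.4%), among them Hsd11b1, which regenerates active glucocorticoid (log2 0.85), and Fkbp5, a chaperone of its receptor (log2 0.48).

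**Figure D3:**
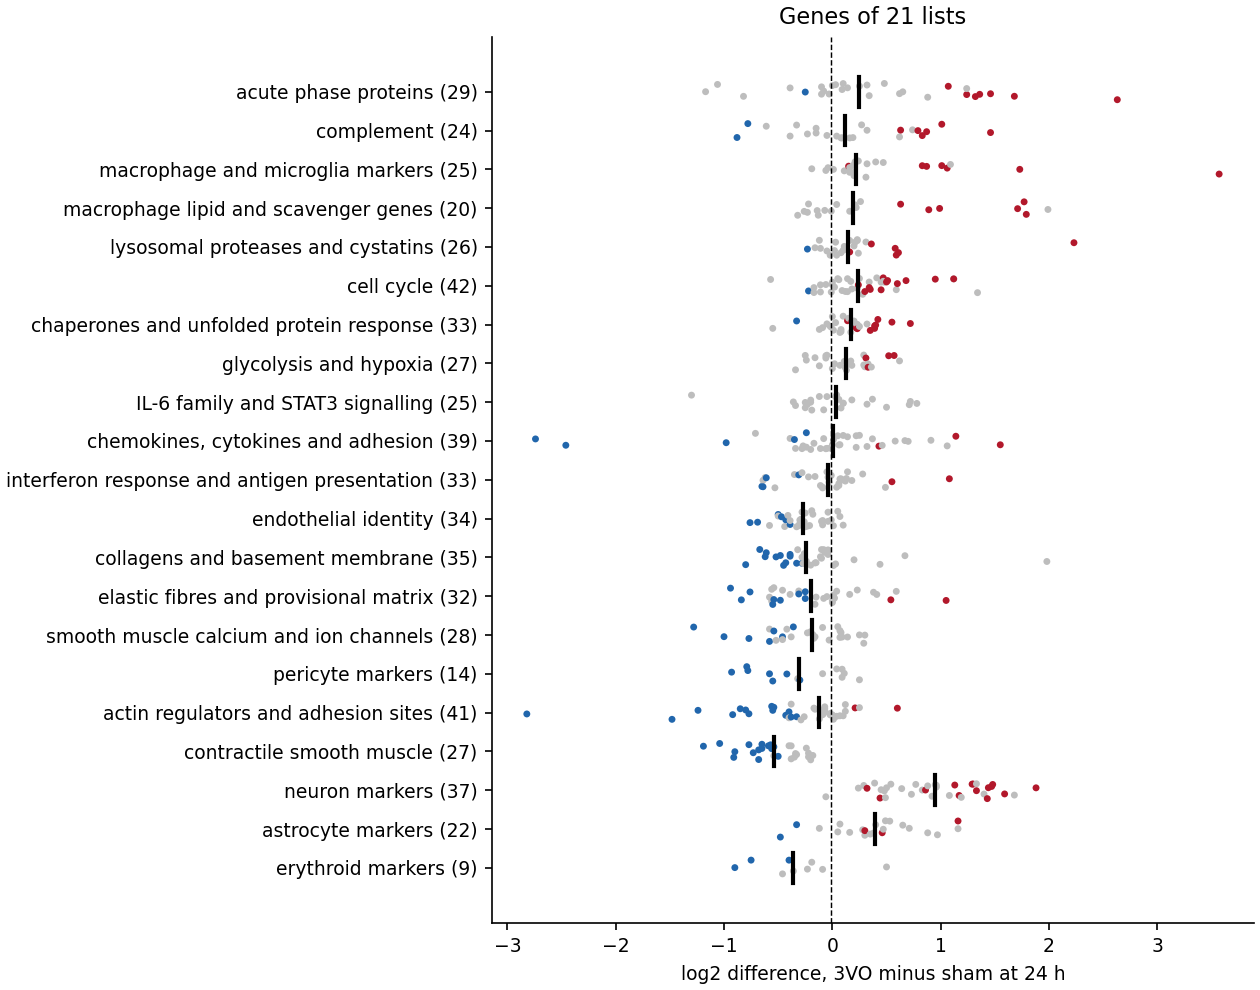
Log2 differences between 3VO and sham at 24 h of the measured genes of 21 lists, with the number of genes in brackets, a black bar at each median and a dashed line at the median of all genes (-0.01). Red points were higher and blue points lower on all 3VO arrays than on all sham arrays, and the contractile list lies wholly below 0.

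RNA from neurons differed between the groups. Of 37 neuron markers, 36 were higher after 3VO, 14 without overlap (37.8%), with a median of 0.95, and their summed signal was 240000 to 438000 after 3VO and 156000 to 269000 after sham surgery. Gad1, which makes GABA, had 20400, 6750 and 10100 against 2130, 4810 and 2710, and intact arteries had 33400, 13800 and 9850. None of the neuron markers passed. Astrocyte markers were higher in 19 of 22 cases with a median of 0.39, led by Fabp7, with 15300, 11900 and 20300 against 7580, 10200 and 4320. Without overlap, 3 astrocyte markers were higher (13.6%) and 2 lower (9.09%). Oligodendrocyte markers were higher in 10 of 15 cases with a median of 0.13. None of them was higher and 2 were lower without overlap (13.3%).

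The split was uneven over arrays. The mean log2 level of the neuron markers was 0.54, -0.10 and 0.63 on 3VO replicates 1, 2 and 3 and -0.91, 0.01 and -0.84 on sham replicates 1, 2 and 3. Replicate 2 of each group therefore held about the same amount. Markers of red cells moved the other way. Of 9 erythroid markers 8 were lower after 3VO, 3 without overlap (33.3%), with a summed signal of 286000 to 305000 against 350000 to 420000. Alas2, which starts haem synthesis in red cells, had 14100, 15200 and 13200 against 20900, 28800 and 22200. All 5 measured platelet markers overlapped, with 2 higher and 3 lower. Choroid plexus markers overlapped in all 18 cases. The part of brain and blood RNA in the other differences was not tested beyond the fits with marker means as covariates. Fibroblast markers of the meninges were lower in 13 of 14 cases, 3 without overlap (21.4%). They were led by the organic anion transporter Slc22a6, with 12300, 11700 and 12200 against 23200, 17100 and 22800. The median of this list was -0.19, but 0.1 with the neuron covariate and 0.03 on the arrays with the closest neuron means.

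**Figure D4:**
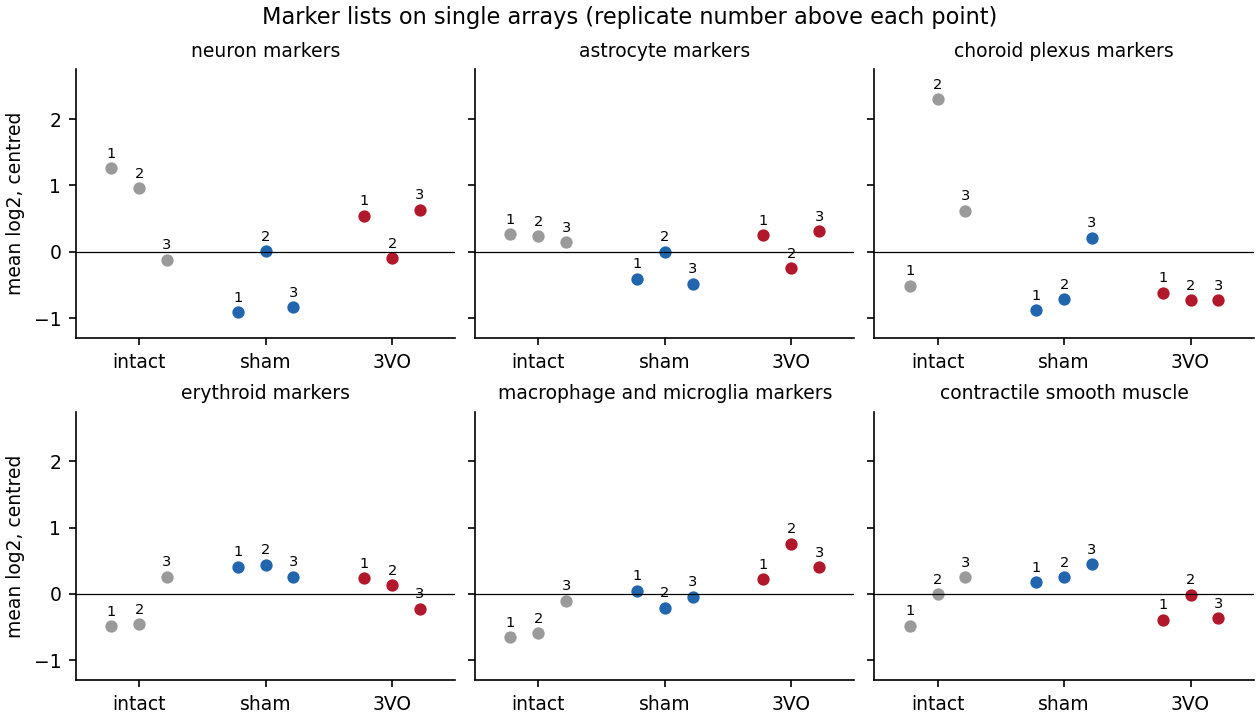
Mean log2 signal of 6 gene lists on single arrays, centred on the mean of all 15 arrays, for intact arteries and 24 h after sham surgery or 3VO, with the replicate number above each point. The neuron markers of 3VO replicate 2 (-0.10) and sham replicate 2 (0.01) are close. The contractile list is at -0.01 and 0.25 on those arrays, and runs from 0.18 to 0.45 over the sham arrays. A difference between single arrays gives no test.

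The comparison was repeated with the neuron mean as a covariate. All 8 probe sets still passed, and 17 were called in all, 16 higher and 1 lower. The macrophage genes Gpnmb (log2 2.41, limma adjusted p = 0.00162), Lgals3 (1.58, 0.00721) and Fcgr2b (2.21, 0.0164) passed in this fit, as did Ifitm1, C1qb and C1qc. The lower gene was Ccdc66, at -1.42. Gad1 went from 1.88 to 0.79 and Scg2, a protein of secretory granules, from 1.44 to 0.46, but both are among the markers that make up the covariate, so this follows from the fit. Of the 30 highest and 30 lowest genes under the naming rule, all 60 kept their sign, and 8 of the higher and 1 of the lower passed. These genes were picked from the same arrays for large differences, so the kept signs were nearly fixed in advance. Sizes changed both ways, with Timp1 going from 2.55 to 2.87 and Pnck from 3.19 to 1.56.

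Lists moved unequally. The macrophage median went from 0.22 to 0.55 and the lysosomal median from 0.14 to 0.35, with 25 of 26 genes higher. The contractile median shrank from -0.54 to -0.27, with 25 of 27 genes lower. Collagens went from -0.24 to 0.05, elastic fibres from -0.20 to 0.11, actin regulators from -0.12 to 0 and interferon genes from -0.04 to 0.25, so their direction depended on this choice. Cell division genes stayed at 0.24.

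A direct look at the pair with the closest neuron means, 3VO replicate 2 minus sham replicate 2, gave values without a test, and the pair was chosen after the marker values were seen. Timp1 differed by 2.91 on the log2 scale and Gpnmb by 2.86. Both genes were highest on 3VO replicate 2 among the 3VO arrays, so these pair values lie at the upper end of the group. The macrophage median was 0.76, with 23 of 25 genes higher, and the lysosomal median 0.44. Contractile genes had a median of -0.24, with 22 of 27 lower, collagens -0.03 and neuron markers -0.08. Erythroid markers were at -0.56. With neuron and erythroid means both as covariates, 7 of the 8 still passed, Lcn2 did not (log2 2.67, limma adjusted p = 0.0591), and the contractile median was -0.18.

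**Figure D5:**
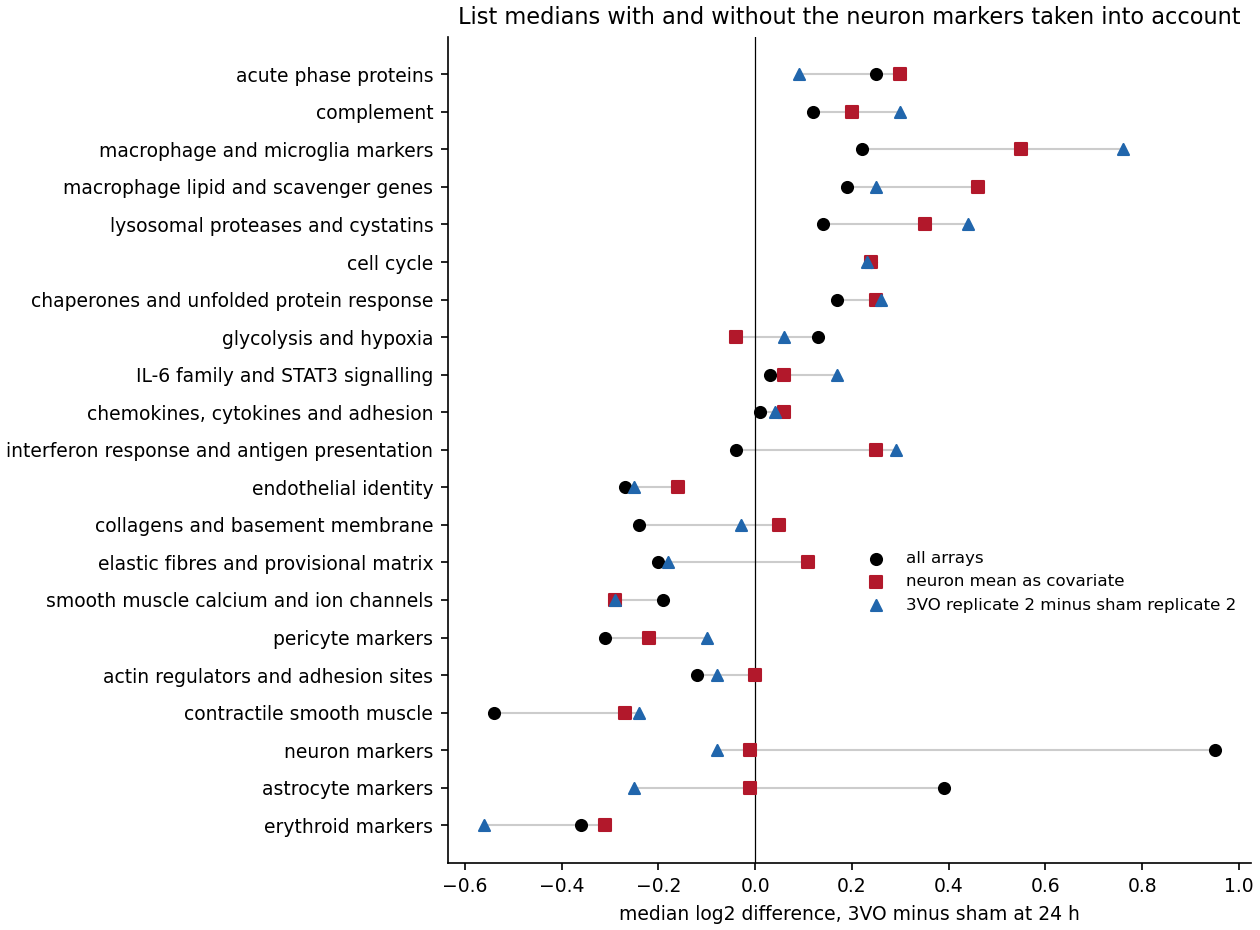
Median log2 difference of 21 lists between 3VO and sham at 24 h in the fit of all arrays (circles), with the neuron mean as a covariate (squares) and on the pair of arrays with the closest neuron means (triangles). The neuron median goes from 0.95 to -0.01 with the covariate, which is made of these markers, the macrophage median goes from 0.22 to 0.55, and the contractile median from -0.54 to -0.27.

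Genes outside the lists were also described. Under the naming rule 83 genes were higher and 114 lower with a mean of 1000 or more in the higher group, no overlap and an unadjusted p under 0.01. Of these, 48 and 75 belonged to no list. The largest log2 differences of the 48 were those of Glra2 (3.70), Pnck (3.19) and Gmfb (2.54). With the neuron covariate they were 2.62, 1.56 and 2.35. Among the higher were Apod, a lipid carrier secreted by glia and fibroblasts, at 120000 ± 8460 against 57500 ± 22300 (log2 1.12), and Tspo, a protein of the outer mitochondrial membrane that rises in activated microglia and macrophages, at 17100 ± 3510 against 10400 ± 1450 (log2 0.70). Also higher were Glrx, which reduces protein thiols (log2 0.73), and Xdh, which makes urate (0.82). Among the lower was Cyp26b1, which degrades retinoic acid, with 2450, 5050 and 3880 against 11000, 9530 and 7640 (log2 -1.35). Palld, which bundles actin, was at 2660 ± 1360 against 7420 ± 2070 (log2 -1.59). Apod, Tspo, Glrx and Xdh were picked from the 83 after their values were seen, and none of these genes passed.

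Arteries taken 3 d after surgery give the later values of the same comparison. The log2 difference of Timp1 was 1.73 at 3 d, that of Cp 1.59, of Pla1a 1.28, of A2m 0.84 and of Lcn2 0.68, and none of these passed at 3 d. C3 was at -0.22. The difference between the effects at 24 h and 3 d was tested for all probe sets and passed for none in limma (438 probe sets, 2.78%, at an unadjusted p under 0.05), with an adjusted p = 0.704 for C3.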

How the data were processed

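RNA of the posterior cerebral artery was measured on Affymetrix Rat230A arrays. The deposited values are a linear signal intensity that the authors made in GCOS (version not given in the sources used here), scaled to a global target per the design text. That text gives 500, but each of the 15 arrays had a trimmed mean (2% off both ends) near 5000. Of 15923 probe sets 57 controls were left out. A platform table with symbols updated from RefSeq (GRCr8) gave 12783 probe sets 1 gene, 312 several and 2771 none.

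Signals were taken as log2(signal + 16). A probe set entered the test if its signal reached 100 on 3 or more arrays, which left 15737. limma 3.58.1 in R 4.3.3 fitted 5 group means to all 15 arrays (10 residual degrees of freedom) with a variance trend, and p-values were 2-sided and Benjamini-Hochberg adjusted over all probe sets. The limit was 0.05. A log2 difference is 3VO minus sham on the log2(signal + 16) scale, which understates low genes. Precision is limited by having 3 arrays a group. The fit was tested on simulated data.

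The comparison, its 42 gene lists and the naming rule were chosen with earlier results of these data known. Named genes were every called probe set, 30 genes in each direction that did not overlap, with a mean of 1000 or more, an unadjusted p under 0.01 and the largest difference, up to 5 genes a list by p, and a fixed set. Genes outside this rule serve to describe a list or the tissue. Alternatives were pseudocounts of 1, 64 and 160, minimums of 300 and 1000 and none, quantile and median scaling, no variance trend, array weights, subsets of arrays, 1 probe set per gene, covariates (array number, neuron, erythroid and choroid plexus means) and leaving out each array.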

Additional observations from a re-analysis of the deposited data

How the results depend on the processing

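The count of 8 calls was the same with pseudocounts of 1 and 64, other signal minimums, quantile scaling and median centring. It was 2 without the variance trend, 25 with array weights, 20 with the 6 arrays alone, 16 without intact arrays, 17 with the neuron mean, 21 with neuron and erythroid means, and 25 with neuron and choroid plexus means as covariates. Leaving out 1 array gave 1 to 13 calls, the lowest without 3VO replicate 2 and the highest without intact replicate 1. Leaving out 1 of the 6 arrays at 24 h gave 3629 to 4504 probe sets whose 3VO and sham arrays at 24 h do not overlap, against 2426, since fewer arrays overlap less often. C3 missed the limit with the 6 arrays alone. With 1 array left out, the log2 difference of S100a9 ran from -0.02 (without sham replicate 1) to 0.65, the log2 difference of Icam1 from -0.05 (without 3VO replicate 2) to 0.30, the log2 difference of Il6 from -0.27 (without sham replicate 1) to 1.35, and the log2 difference of Pecam1 from -0.50 to 0.11, with 0.10 without 3VO replicate 1 and 0.11 without sham replicate 2. The log2 difference of Fn1 was 0.02 with neuron and erythroid means as covariates. List medians stayed within 1 SD of the arrays for 42 of 42 lists under each change of pseudocount, signal minimum and scaling, and for 21 of 42 with the neuron mean as a covariate. No paired analysis was possible because the replicate numbers follow the order of the samples and pair no arrays across groups. Low signals limit the precision of fold sizes, as for the kininogen probe set.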
